A study of Mus musculus with 6 samples.

Results

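The endoplasmic reticulum (ER) chaperone, folding and ER-associated degradation (ERAD) genes are a module of 39 genes, chosen by symbol from a list of ER chaperones, disulfide isomerases, translocon subunits, ERAD factors and unfolded protein sensors. All 39 had a row among the 18518 gene symbols of the table, and all 39 passed the filter of a mean of at least 1 FPKM (fragments per kilobase of transcript scaled by the mapped fragments of the library) over the libraries, as did 12187 genes in all. They were followed in E14Tg2A cells, an established mouse embryonic stem cell line, in 3 BACH1-KO and 3 WT libraries. BACH1-KO cells carry a CRISPR/Cas9 disruption of Bach1, a heme-binding transcription factor, made with a lentiviral CRISPR plasmid that was transfected, followed by puromycin selection and the sorting of single-cell clones. The labels do not say whether the BACH1-KO libraries come from a single clone or whether libraries of a group were separate cultures, so the spread behind each p-value may be technical only. Leukemia inhibitory factor (LIF), which keeps such cells undifferentiated, was present at 200 units/ml in both genotypes over 2 days of culture.

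Proteins bound for the secretory pathway enter the ER through the Sec61 translocon, fold with the help of the Hsp70 chaperone BiP, of GRP94 and of the lectin chaperones, and gain disulfide bonds from protein disulfide isomerases. Proteins that fail to fold are pulled back to the cytosol and degraded by ERAD. When unfolded protein builds up, the sensors ATF6, IRE1 (encoded by Ern1) and PERK (encoded by Eif2ak3) are switched on as proteins: ATF6 is cleaved into a transcription factor, IRE1 splices Xbp1 mRNA so that it encodes another, and PERK phosphorylates eIF2α, which favours translation of ATF4. ATF6 and spliced XBP1 are known to act through the ER stress response element (ERSE) in chaperone promoters, and ATF4 through C/EBP-ATF response elements (CARE). Gene-level values do not separate spliced from unspliced Xbp1 and say nothing of the cleavage or phosphorylation of the sensors.

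The 5 promoters below are shown because they carry such elements and belong to members that moved in opposite directions. Herpud1 and Derl3 rose in BACH1-KO cells, and Hspa5, Hsp90b1 and Pdia6 fell. Sequences are RefSeq windows of 300 bases, 250 before and 50 from the annotated transcript start, on build GRCm38.p6, read 5′ to 3′ on the gene's strand. They cover chr8:94386179-94386478 (plus strand) for Herpud1, chr10:75893148-75893447 (plus) for Derl3, chr2:34771840-34772139 (plus) for Hspa5, chr10:86705395-86705694 (minus) for Hsp90b1 and chr12:17266339-17266638 (plus) for Pdia6. Capitals mark the letters that matched: the outer pairs of 5 bases of an ERSE or ERSE-II, and the whole CARE in Herpud1 and the whole BACH1 and MAF element in Hspa5.
Herpud1: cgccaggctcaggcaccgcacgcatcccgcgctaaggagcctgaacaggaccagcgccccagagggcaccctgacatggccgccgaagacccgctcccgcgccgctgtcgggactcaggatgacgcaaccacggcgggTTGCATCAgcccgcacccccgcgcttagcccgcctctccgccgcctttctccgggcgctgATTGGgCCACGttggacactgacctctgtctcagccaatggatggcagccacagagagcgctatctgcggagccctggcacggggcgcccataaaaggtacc
Derl3: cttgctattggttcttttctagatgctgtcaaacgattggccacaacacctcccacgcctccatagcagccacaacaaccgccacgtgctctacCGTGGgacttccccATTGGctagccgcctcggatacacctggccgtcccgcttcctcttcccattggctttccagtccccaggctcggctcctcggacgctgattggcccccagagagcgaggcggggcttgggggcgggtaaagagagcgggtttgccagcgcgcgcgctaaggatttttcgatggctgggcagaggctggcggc
Hspa5: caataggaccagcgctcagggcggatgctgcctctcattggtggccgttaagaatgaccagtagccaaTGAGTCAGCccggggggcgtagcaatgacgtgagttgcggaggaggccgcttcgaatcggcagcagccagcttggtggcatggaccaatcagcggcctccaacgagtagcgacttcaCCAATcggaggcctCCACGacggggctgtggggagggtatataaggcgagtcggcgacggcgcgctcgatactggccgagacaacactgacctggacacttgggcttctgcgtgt
Hsp90b1: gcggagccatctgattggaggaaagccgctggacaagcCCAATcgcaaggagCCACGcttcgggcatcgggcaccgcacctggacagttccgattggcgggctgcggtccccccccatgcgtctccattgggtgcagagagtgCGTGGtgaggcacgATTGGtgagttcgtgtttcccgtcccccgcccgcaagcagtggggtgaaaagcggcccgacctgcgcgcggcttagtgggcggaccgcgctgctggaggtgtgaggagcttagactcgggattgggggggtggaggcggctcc
Pdia6: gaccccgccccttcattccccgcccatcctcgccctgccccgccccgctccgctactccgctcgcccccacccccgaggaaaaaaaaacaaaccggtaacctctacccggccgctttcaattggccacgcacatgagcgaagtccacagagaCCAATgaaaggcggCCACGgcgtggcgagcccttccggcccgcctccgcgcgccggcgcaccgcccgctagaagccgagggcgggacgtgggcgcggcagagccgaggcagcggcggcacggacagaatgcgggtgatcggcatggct

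The search asked for CCAAT and CCACG separated by 9 bases (ERSE), ATTGG and CCACG separated by 1 base (ERSE-II), TGACGTGG (the unfolded protein response element, UPRE), TGATGCAA or TGATGAAA (CARE) and TGAGTCAGC (an element bound by BACH1 and small MAF proteins), on both strands. RefSeq windows were found for 32 of the 39 members, and no match overlapped another. An ERSE was held by 10 of the 32 members (31.2%) and by 37 of all 27025 genes with a window (0.137%). As the element is known from chaperone promoters, its higher share among members chosen as ER genes is no independent result. Besides the promoters of Derl3, Hspa5, Hsp90b1 and Pdia6 printed above, the ERSE lay in those of Calr, Canx, Ero1lb, Dnajc3, Creld2 and Syvn1. Of these 10 members 7 were lower in BACH1-KO, 2 (Derl3 and Canx) were higher and 1 (Syvn1) did not pass the test. Of the 22 members without an ERSE in the window 15 were lower, 4 were higher and 3 did not pass. Both sets held members of each direction, and in both most members were lower. Over all tested genes 39.7% were called lower and 37.3% higher. The difference between the sets was not tested.

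The Herpud1 window held an ERSE-II at bases -52 to -42 from the start and a CARE on the opposite strand at -112 to -105. The only other member with an ERSE-II was Dnajb11, at bases 7 to 17, and no other member held a CARE. ERSE-II letters were in 0.0444% of all genes' windows and CARE letters in 2.16%. The UPRE letters (0.714% of all genes) lay in the Vcp window, and the BACH1 and MAF element (0.481%) in that of Hspa5, at -182 to -174. The shares over all genes are given for scale only, and no share was tested. These are matches of letters and say nothing of binding.

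**Figure D1:**
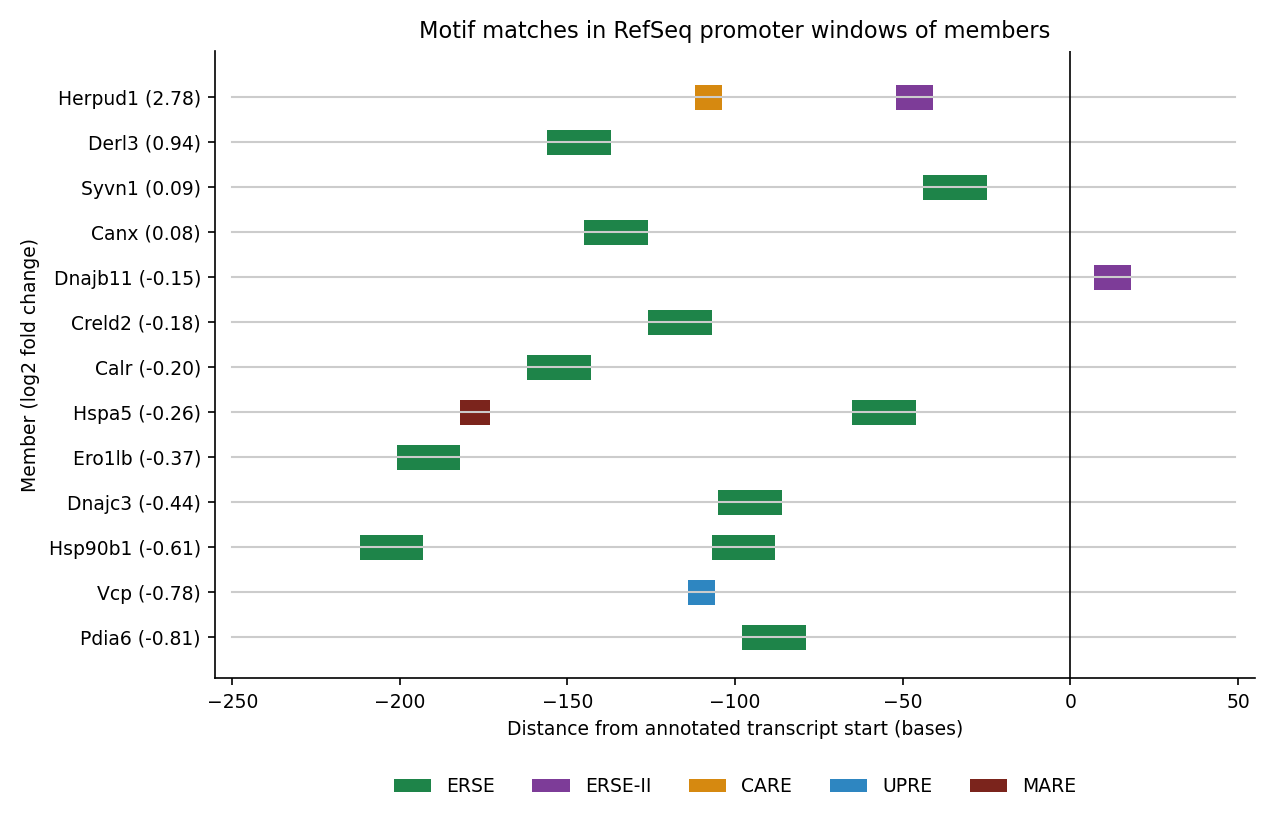
Motif matches in the RefSeq promoter windows of the 13 members that held any, by distance from the annotated transcript start in bases (grey line, the window searched); members run from the highest to the lowest log2 fold change, given in brackets. ERSE matches (green) lie in windows of members that were higher, such as Derl3 at 0.94, and lower, such as Pdia6 at -0.81.

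Bach1 transcript was at 10.5, 10.4 and 10.4 FPKM in BACH1-KO and 7.97, 8.39 and 8.47 FPKM in WT (limma adjusted p = 5.15e-04). A transcript that is not lower does not check an edit of the gene, so the labels rest on their own here. The labelled cell type was checked against its markers. All 12 stem cell markers (Pou5f1, Sox2, Nanog and others) were tested, and they summed to 7148 to 7398 FPKM in BACH1-KO and 10857 to 11632 FPKM in WT, with 3 higher and 9 lower. Of 18 hepatocyte markers 17 were tested and all 17 rose, with sums of 930.5 to 959.4 FPKM in BACH1-KO (0.121% to 0.126% of all FPKM) and 12.6 to 18.7 FPKM in WT. No hepatocyte marker was at 0 in all libraries, and Apoh and Cyp3a11 were listed at 0 in every WT library. The filter used the mean over both genotypes, so a marker at or near 0 in WT was tested only if high in BACH1-KO. For such markers a rise was fixed in advance, and the count of 17 is no independent support. Feeder fibroblast markers summed to 124.5 to 129.7 FPKM in BACH1-KO and 249.7 to 267.5 FPKM in WT, with 1 higher and 3 lower of 4 tested, and with Col3a1 and Lum listed at 0 in every WT library. Extraembryonic endoderm markers summed to 19.5 to 20.6 FPKM in BACH1-KO and 33.9 to 37.0 FPKM in WT, with 4 lower and 2 not past of 6 tested. The part of these marker genes in the changes described next was not tested, and in bulk RNA fewer cells of a type and less RNA per cell cannot be told apart.

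Most of the module was lower in BACH1-KO cells, by less than 2-fold, while a few members rose. Of 39 members 25 fell, 6 rose and 8 did not pass the test (limma on log2(FPKM + 1), Benjamini-Hochberg adjusted p under 0.05 over all tested genes). Lower calls made up 64.1% of the members, against 39.7% of all 12187 tested genes, and higher calls 15.4% of the members, against 37.3% of all. In either direction 79.5% of the members were called, close to the 77.0% of all genes, so the share of members called is near the background. The median log2 fold change was -0.20 over the members and -0.01 over all tested genes, and the median size without its sign was 0.26 over the members and 0.38 over all. In 31 members (79.5%, against 79.3% of all tested genes) the libraries of the genotypes did not overlap, the 25 lower and the 6 higher ones. For each of these 31 the exact two-sided permutation p was 0.1, and 3 against 3 libraries cannot give a smaller one. Tested against a fold change of 1.5, Herpud1 and Derl3 passed as higher and P4hb, Ero1l, Pdia6 and Vcp as lower, 6 members or 15.4%, against 19.0% of all genes.

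Summed over the module, the level was 3378, 3438 and 3405 FPKM in the BACH1-KO libraries, against 4377, 4331 and 4372 FPKM in the WT libraries. The sum was thus lower in every BACH1-KO library than in any WT library, at 0.781 times the WT mean. It made up 0.441% to 0.450% of all FPKM in BACH1-KO and 0.538% to 0.557% in WT. The 11 members above 100 FPKM in WT (a level chosen after the values were seen) included 10 that fell and 1, Canx, that rose, and of the 28 below it 15 fell and 5 rose. Abundant genes were often lower in general: of all 1105 tested genes above that level 64.2% fell and 22.0% rose, and of the 11082 others 37.2% fell and 38.8% rose. After quantile normalization 6 of the 11 abundant members were called lower, and 49.8% of the 1105 genes. The part of this lean in the falls of the abundant members was not tested. The median coefficient of variation of a member was 2.71% over the BACH1-KO and 3.63% over the WT libraries. The first WT library was the highest of its group for 19 members and the lowest for 15, and it held the highest WT values of Hspa5, Hyou1, Xbp1 and Atf6 and the lowest of Herpud1 and Dnajb9.

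**Figure D2:**
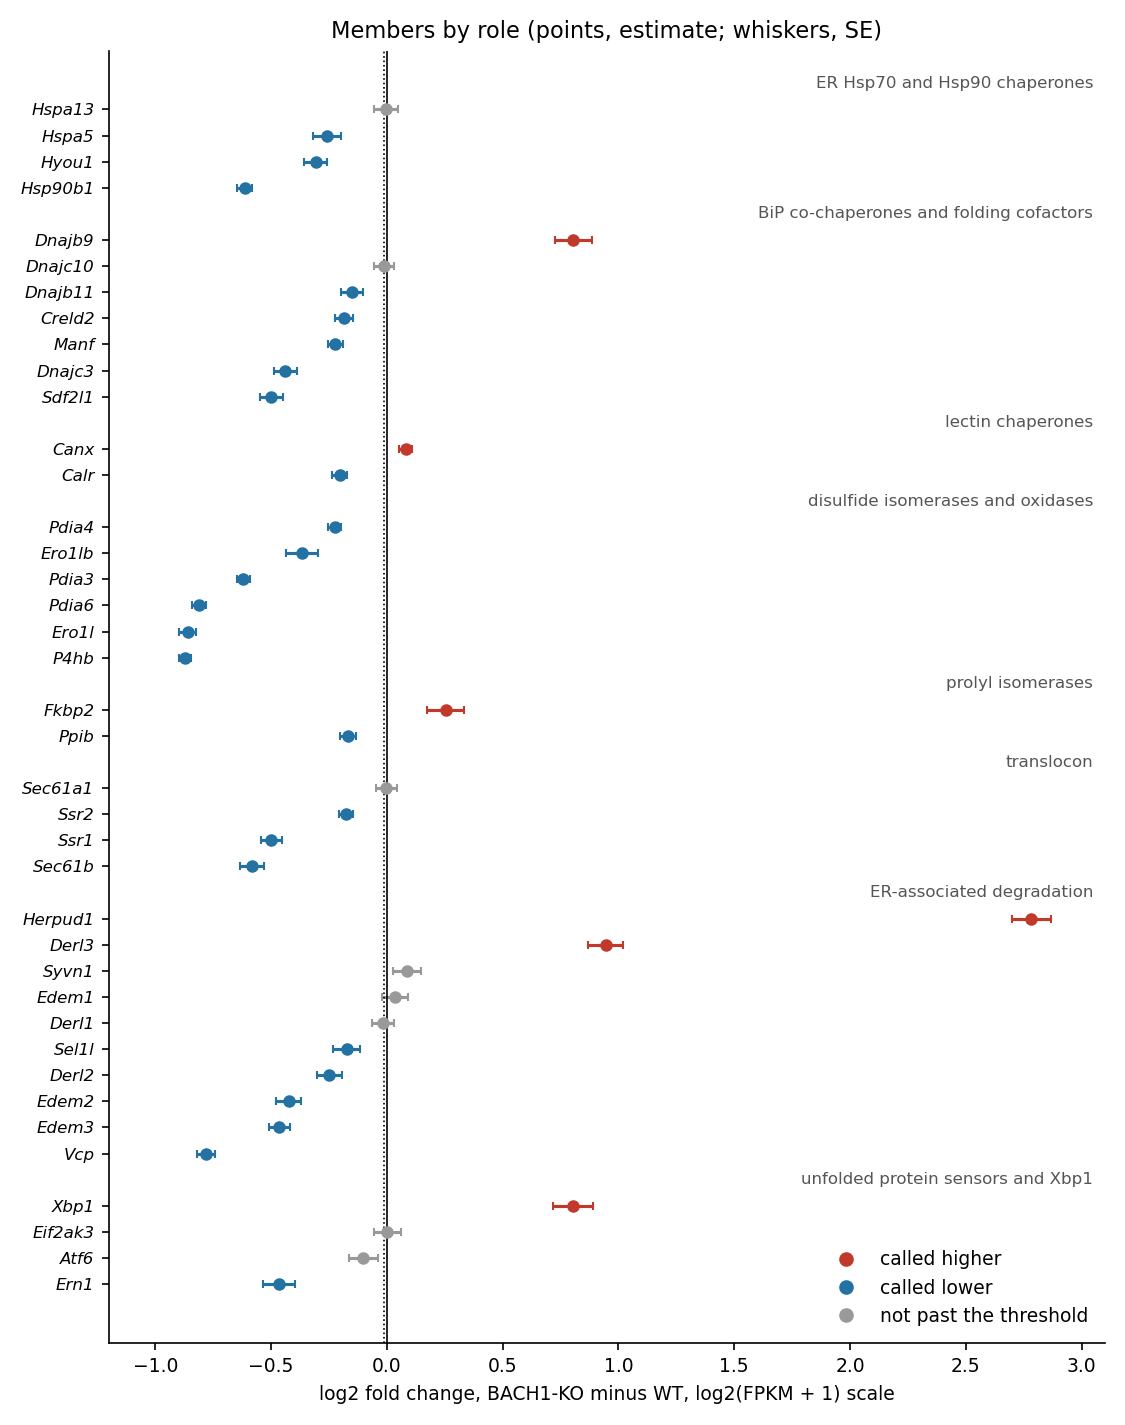
Log2 fold change (BACH1-KO minus WT, log2(FPKM + 1) scale; points, estimates; whiskers, SE) of all 39 members by role, with called higher in red, called lower in blue and not past the threshold in grey; the dotted line is the median of all tested genes, -0.01. The disulfide isomerases and oxidases all lie left of 0, and Herpud1 at 2.78 lies far from every other member.

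Among the Hsp70 and Hsp90 class chaperones of the ER, Hsp90b1, Hspa5 and Hyou1 fell and Hspa13 did not pass. Hsp90b1 encodes GRP94, the Hsp90 of the ER lumen (chromosome 10, 86690841 to 86705444). It was at 234, 237 and 246 FPKM in BACH1-KO and 377, 363 and 360 FPKM in WT. No libraries of the genotypes came near each other, and the difference on the log2 scale was -0.61 (SE 0.03, limma adjusted p = 1.00e-06). Hspa5 encodes BiP, the central Hsp70 of the ER (chromosome 2, 34772090 to 34776529), and was at 167, 171 and 169 FPKM in BACH1-KO and 225, 190 and 194 FPKM in WT. The first WT library was well above the other WT libraries, all of which exceeded the BACH1-KO libraries. On the log2 scale the difference came to -0.26 (SE 0.06, limma adjusted p = 0.00419), a fall to 0.833 times the WT mean. Without the first WT library the log2 fold change of Hspa5 was smaller, at -0.18 (limma adjusted p = 6.77e-04). Hyou1, an Hsp110-type partner that exchanges the nucleotide of BiP, fell to 24.7 ± 0.566 FPKM in BACH1-KO, against 30.9 ± 1.94 FPKM in WT (SD, n = 3 each). Hspa13, a microsome-associated Hsp70 relative, was at 10.03 ± 0.366 FPKM in BACH1-KO and 10.07 ± 0.354 FPKM in WT, with an interval of the log2 fold change (95%) of -0.12 to 0.11. After quantile normalization Hspa5 was not called (log2 fold change -0.08, limma adjusted p = 0.253, with 6.77e-04 to 1 over all settings). The upper end of such ranges, here and below, comes from the test against a fold change of 1.5, which asks a different question.

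The co-chaperones and cofactors of BiP split, with 5 lower, 1 higher and 1 not past of 7. Sdf2l1, which works with BiP and ERdj3, was at 36.6, 39.4 and 39.8 FPKM in BACH1-KO and 51.9, 57.1 and 56.0 FPKM in WT. It fell to 0.702 times the WT mean, beyond the spread of either group. Dnajc3 (P58IPK), a luminal J protein, fell to 9.52 ± 0.113 FPKM in BACH1-KO, against 13.3 ± 0.606 FPKM in WT. The falls of Manf, a BiP-binding secreted factor, Creld2, an ER stress-inducible folding factor, and Dnajb11 (ERdj3) were smaller, to 0.855, 0.878 and 0.898 times the WT means. Dnajb9 (ERdj4) is a J protein known for recruiting BiP to IRE1 and for acting in ERAD. It was at 21.3, 19.4 and 21.0 FPKM in BACH1-KO and 10.1, 12.8 and 11.3 FPKM in WT. All BACH1-KO libraries exceeded all WT libraries, with a log2 fold change of 0.80 (SE 0.08, limma adjusted p = 3.25e-05). Dnajc10 (ERdj5), the reductase among these J proteins, was at 31.6 ± 1.16 FPKM in BACH1-KO and 31.9 ± 1.14 FPKM in WT, with an interval (95%) of -0.11 to 0.09. Creld2 was not called after quantile normalization (limma adjusted p = 0.101, with 9.23e-04 to 1 over all settings). Dnajb11 was not called there either (0.108), nor without the first WT (0.0549), the first BACH1-KO (0.0590) or the last BACH1-KO library (0.0786), with 0.00652 to 1 over all settings.

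The lectin chaperones calreticulin and calnexin, which bind monoglucosylated glycoproteins, were called in opposite directions. Calr was at 331, 317 and 330 FPKM in BACH1-KO and 384, 376 and 368 FPKM in WT, a log2 fold change of -0.20 (SE 0.03). Canx, the membrane-bound one, was at 249, 241.2 and 242 FPKM in BACH1-KO and 229, 235 and 228 FPKM in WT, a log2 fold change of 0.08 (SE 0.03, limma adjusted p = 0.0314). The genotypes did not overlap for either gene, but the distance was small for Canx. Its call was lost without the first WT (limma adjusted p = 0.0519), the last WT (0.0838) and any of the BACH1-KO libraries (0.102, 0.0552 and 0.0643), with median-of-ratios scaling (0.269) and with a constant prior variance (0.0975), within a range of 3.26e-05 to 1 over all settings. Calr was not called after quantile normalization (0.124, with 1.46e-04 to 1 over all settings).

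All 6 disulfide isomerases and oxidases fell, and their summed level was 685, 689 and 686 FPKM in BACH1-KO, against 1141, 1145 and 1162 FPKM in WT. P4hb encodes PDI, the founding member of the family (chromosome 11, 120560298 to 120573253), and was at 208, 207 and 208 FPKM in BACH1-KO and 379, 380 and 387 FPKM in WT. Its libraries varied by a few FPKM within each genotype, and the log2 fold change of -0.87 (SE 0.03, limma adjusted p = 6.02e-08) was the lowest of the module. Ero1l (listed as Ero1a in RefSeq) encodes the main oxidase that recharges PDI and was at 35.4, 35.5 and 34.4 FPKM in BACH1-KO and 62.3, 65.6 and 65.9 FPKM in WT. It fell to 0.543 times the WT mean, much like P4hb at 0.545 times. Pdia6 (P5), an isomerase that also acts on IRE1 and PERK, was at 194, 197 and 195 FPKM in BACH1-KO and 332, 344 and 354 FPKM in WT. Pdia3 (ERp57), the partner of the lectin chaperones, fell to 185 ± 0.984 FPKM in BACH1-KO, against 285 ± 6.31 FPKM in WT. Pdia4 (ERp72) fell less, to 62.1 ± 0.376 FPKM in BACH1-KO, against 72.8 ± 1.03 FPKM in WT. Ero1lb (Ero1b in RefSeq), an oxidase best known from pancreatic islets, was the least abundant member, at 1.57 ± 0.0781 FPKM in BACH1-KO and 2.31 ± 0.0566 FPKM in WT.

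**Figure D3:**
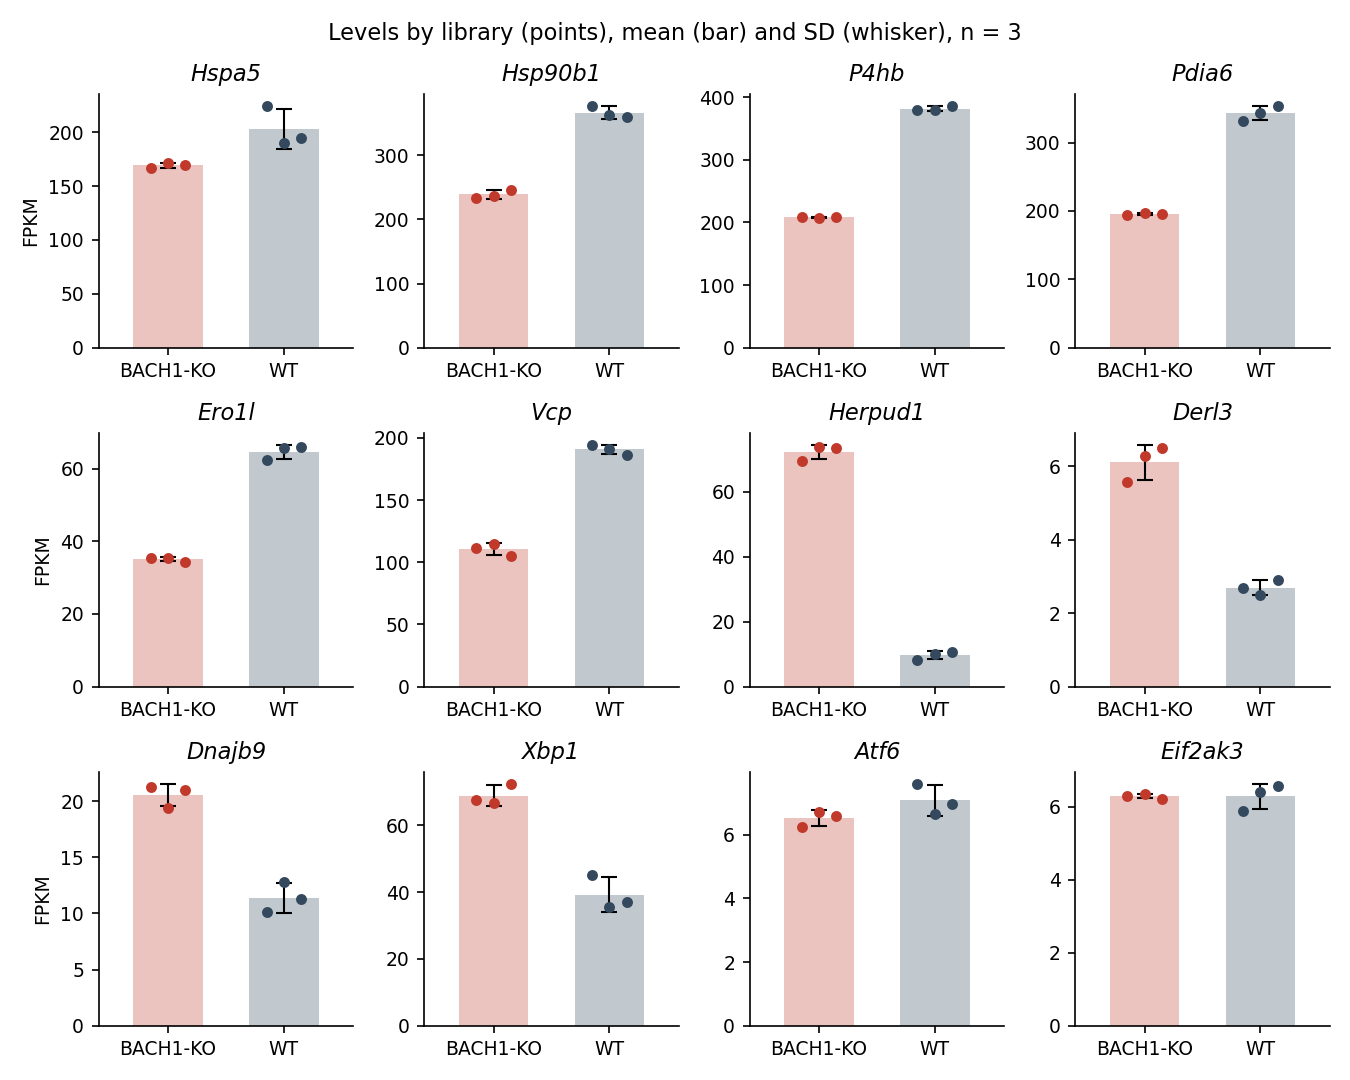
FPKM of 12 members in each BACH1-KO and WT library (points; bars, mean; whiskers, SD; n = 3 per genotype, linear axes from 0). Hspa5, Hsp90b1, P4hb, Pdia6, Ero1l and Vcp are lower in BACH1-KO, and Herpud1, Derl3, Dnajb9 and Xbp1 are higher. The libraries overlap for Atf6 and Eif2ak3.

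The prolyl isomerases also parted. Ppib, cyclophilin B, fell to 329 ± 5.99 FPKM in BACH1-KO, against 369 ± 13.6 FPKM in WT. Fkbp2, a small FK506-binding isomerase, was at 53.1, 59.3 and 60.4 FPKM in BACH1-KO and 48.96, 53.0 and 42.8 FPKM in WT. Its genotypes were close, with the lowest BACH1-KO library just above the highest WT library (log2 fold change 0.25, SE 0.08, limma adjusted p = 0.0194). The call of Fkbp2 was lost without the second (limma adjusted p = 0.0607) or the last BACH1-KO library (0.0670), with 0.00489 to 1 over all settings. Ppib was not called after quantile normalization (0.495, with 7.46e-04 to 1 over all settings). Exons of Ppib share 514 bases with Snx22 on the opposite strand, and whether the counting used strand is not given in the sources used here; Snx22 was at 0.936 FPKM in BACH1-KO and 1.54 FPKM in WT.

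Of the 4 translocon members 3 fell and Sec61a1 did not pass. Sec61b, the beta subunit of the channel and the most abundant member in both genotypes, was at 338, 387 and 359 FPKM in BACH1-KO and 535, 527 and 563 FPKM in WT. It fell to 0.668 times the WT mean, past the spread of both groups. The 3 annotated Gm-named genes (Gm10320, Gm33666 and Gm5870) hold stretches with at least 95% identity to its transcript, so reads may be split between them and the level of Sec61b is uncertain. Copies also match 20.5% of the Derl1 and 21.7% of the Ero1lb transcript. Besides Ppib, exons of Derl2, Dnajb9, Eif2ak3, Hsp90b1, Manf, Pdia3, Pdia6, Sec61a1, Ssr2, Syvn1 and Vcp share 14 to 549 bases with a gene on the opposite strand, and those of Hsp90b1, Manf and Pdia4 share 14 to 133 bases with a gene on the same strand. Sec61a1, the pore-forming subunit, was at 75.5, 81.8 and 77.0 FPKM in BACH1-KO and 81.2, 74.4 and 79.2 FPKM in WT. Its libraries interleaved, and the interval of the log2 fold change (95%) was -0.11 to 0.10. Ssr1 and Ssr2 encode TRAP subunits, which assist the entry of some signal peptides. Ssr1 fell to 19.8 ± 0.775 FPKM in BACH1-KO, against 28.3 ± 0.972 FPKM in WT, and Ssr2 to 252 ± 4.45 FPKM in BACH1-KO, against 285 ± 8.47 FPKM in WT. Ssr2 was not called after quantile normalization, with a log2 fold change only just positive (0.0087, limma adjusted p = 0.786, with 4.26e-04 to 1 over all settings).

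ERAD held the member with the largest change. Herpud1 encodes HERP, a membrane protein that scaffolds the ERAD ubiquitin ligase complex (chromosome 8, 94386429 to 94395371). It was at 69.6, 73.8 and 73.5 FPKM in BACH1-KO and 8.24, 10.05 and 10.8 FPKM in WT. Every BACH1-KO library was several times above every WT library, with a ratio of means of 7.46 and a log2 fold change of 2.78 (SE 0.08, limma adjusted p = 6.93e-08). By level Herpud1 ranked 13 among the 39 members in BACH1-KO and 31 in WT. Derl3 encodes a derlin, a family of ERAD membrane proteins, and is known as an IRE1 and XBP1 target. It was at 5.56, 6.26 and 6.48 FPKM in BACH1-KO and 2.69, 2.49 and 2.89 FPKM in WT. The level stayed low in both genotypes, but the groups were well apart (ratio 2.27, log2 fold change 0.94, SE 0.08, limma adjusted p = 9.53e-06). Hepatocyte markers were also higher in the same libraries, as given above, and their part in the rise of Derl3 and Herpud1 was not tested.

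The other ERAD members fell or did not pass. Vcp encodes the AAA ATPase p97 that extracts substrates from the membrane, and was at 112, 115 and 105 FPKM in BACH1-KO and 194, 191 and 187 FPKM in WT. The genotypes were far apart, with a log2 fold change of -0.78 (SE 0.04, limma adjusted p = 6.25e-07). Because Vcp-rs, an annotated gene, matches 73.0% of the Vcp transcript with 99.05% identity, reads may be shared and the level is uncertain. Edem2 and Edem3, mannosidase-like proteins that mark glycoproteins for disposal, fell to 0.734 and 0.708 times the WT means. Edem1, of the same family, was at 9.11 ± 0.217 FPKM in BACH1-KO and 8.88 ± 0.585 FPKM in WT, with an interval (95%) of -0.10 to 0.17. Syvn1 (HRD1), the ubiquitin ligase of the complex, was at 8.002 ± 0.184 FPKM in BACH1-KO and 7.48 ± 0.530 FPKM in WT. Sel1l, its adaptor, fell to 6.24 ± 0.0980 FPKM in BACH1-KO, against 7.18 ± 0.381 FPKM in WT. The derlins differed, with Derl1 at 23.4 ± 0.575 FPKM in BACH1-KO and 23.8 ± 1.26 FPKM in WT (interval -0.13 to 0.09) and Derl2 lower, at 17.2 ± 0.726 FPKM in BACH1-KO and 20.6 ± 1.19 FPKM in WT. The call of Sel1l was lost without the first WT (limma adjusted p = 0.0515), the second WT (0.0609), the first BACH1-KO (0.0536) or the last BACH1-KO library (0.0674), with 0.00240 to 1 over all settings. Syvn1 was called higher without the first WT library (limma adjusted p = 0.0411, with 0.0411 to 1 over all settings).

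Of the unfolded protein sensors, Atf6 and Eif2ak3 did not pass, Ern1 fell, and Xbp1, the transcript that IRE1 splices, rose. Xbp1 (chromosome 11, 5520641 to 5525993) was at 67.5, 66.6 and 72.5 FPKM in BACH1-KO and 45.2, 35.4 and 36.9 FPKM in WT. The highest WT library, the first, was still below every BACH1-KO library, and the difference on the log2 scale was 0.80 (SE 0.09, limma adjusted p = 4.81e-05). Ern1 was at 1.72, 1.81 and 1.601 FPKM in BACH1-KO and 2.68, 2.84 and 2.71 FPKM in WT, low in all libraries but without overlap (ratio 0.624). Eif2ak3 was at 6.29, 6.33 and 6.22 FPKM in BACH1-KO and 5.89, 6.40 and 6.56 FPKM in WT, with the BACH1-KO libraries inside the range of the WT ones. Its log2 fold change had an interval (95%) of -0.13 to 0.13. Atf6 was at 6.26, 6.72 and 6.60 FPKM in BACH1-KO and 7.61, 6.67 and 6.98 FPKM in WT, with an interval of -0.25 to 0.04. After quantile normalization Atf6 was called lower (log2 fold change -0.20, limma adjusted p = 0.0140, with 0.0140 to 1 over all settings).

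Chromosome 6 carries 4 members, Pdia4, Eif2ak3, Edem1 and Sec61a1. Its 570 tested genes had a median log2 fold change of 0.32, while the medians of the other chromosomes ran from -0.12 to 0.09. Set against that median, the log2 fold changes were -0.54 for Pdia4, -0.31 for Eif2ak3, -0.28 for Edem1 and -0.32 for Sec61a1. Eif2ak3, Edem1 and Sec61a1 are 3 of the 8 members that did not pass, and the part of the chromosome in their values was not tested.

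The order of levels changed for several members. In BACH1-KO the 5 most abundant members were Sec61b, Ppib, Calr, Ssr2 and Canx, and in WT they were Sec61b, P4hb, Calr, Ppib and Hsp90b1. P4hb ranked 7 in BACH1-KO and 2 in WT, and Canx ranked 5 in BACH1-KO and 9 in WT. Neighbours in this order often overlapped: in BACH1-KO the ranges of Ppib and Calr overlapped, as did those of Canx with Ssr2 and with Hsp90b1. In WT the ranges of P4hb, Calr and Ppib overlapped, and that of Hsp90b1 overlapped those of Calr and Ppib. Hspa5 held rank 10 in both genotypes, and 10 members had the same rank in both.

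Neighbouring parts of the ER were described with 12 further lists, of which 175 genes were tested, with 65 higher, 70 lower and 40 not past, at a median log2 fold change of -0.01; over all tested genes 37.3% were higher and 39.7% lower. The list of the PERK and ATF4 arm of the stress response stood at the high end, with 16 higher, 4 lower and 0 not past of 20 and a median of 1.67. The 4 lower genes were Eif2s1, which encodes eIF2α, and Eif2ak1, Eif2ak2 and Eif2ak4, which encode eIF2α kinases other than PERK. The list is thus not particular to PERK, and the part of any kinase in the rises was not tested. Atf4 was at 432, 410 and 416 FPKM in BACH1-KO and 97.96, 91.0 and 86.3 FPKM in WT. Ddit3, which encodes CHOP, was at 130, 136 and 132 FPKM in BACH1-KO and 26.4, 23.2 and 22.1 FPKM in WT. Both were several times higher in every BACH1-KO library. Chac1, a glutathione-degrading enzyme, was at 171 ± 4.54 FPKM in BACH1-KO and 1.64 ± 0.507 FPKM in WT. Nupr1, a stress-induced chromatin protein, rose to 317 ± 13.2 FPKM in BACH1-KO, against 17.0 ± 0.887 FPKM in WT, and Trib3, a pseudokinase, to 46.1 ± 0.271 FPKM in BACH1-KO, against 7.70 ± 0.254 FPKM in WT. In the list of ATF6 and IRE1 processing and regulators 4 rose, 5 fell and 7 did not pass of 16, at a median of 0.01. Creb3, an ATF6-related membrane factor, rose to 17.9 ± 1.31 FPKM in BACH1-KO, against 7.47 ± 0.526 FPKM in WT. Rtcb, the ligase that joins spliced Xbp1, fell to 91.3 ± 2.35 FPKM in BACH1-KO, against 134 ± 2.05 FPKM in WT, and Bak1 to 18.2 ± 1.05 FPKM in BACH1-KO, against 28.0 ± 0.478 FPKM in WT.

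Among 22 tested genes in the list of other ERAD factors 13 rose, 3 fell and 6 did not pass, at a median of 0.27, beside 2 higher, 5 lower and 3 not past of the 10 ERAD members; the difference between the lists was not tested. Erlec1, a lectin of the HRD1 complex, rose to 17.3 ± 0.890 FPKM in BACH1-KO, against 7.84 ± 0.398 FPKM in WT, and Vimp (Selenos), a selenoprotein that binds p97, to 57.3 ± 0.708 FPKM in BACH1-KO, against 32.6 ± 1.88 FPKM in WT. Ubac2 fell to 20.9 ± 1.06 FPKM in BACH1-KO, against 36.5 ± 1.23 FPKM in WT. Other ER thiol oxidoreductases had 9 higher, 6 lower and 2 not past of 17. Tmx1 and Tmx3, membrane-bound thioredoxin-like proteins, rose to 1.75 and 1.598 times the WT means, and Prdx4, the ER peroxiredoxin, to 145 ± 2.95 FPKM in BACH1-KO, against 107 ± 3.14 FPKM in WT. Further BiP exchange factors and J proteins, listed with the canopy proteins, had 2 higher, 4 lower and 4 not past of 10. Cnpy2 rose to 190.3 ± 7.06 FPKM in BACH1-KO, against 60.2 ± 0.569 FPKM in WT, Cnpy4 rose to 1.62 times its WT mean, and Cnpy3, a GRP94 cofactor for Toll-like receptors, fell to 0.627 times. Other ER prolyl isomerases had 2 higher and 5 lower of 7, with Fkbp11, Fkbp9 and Fkbp1a (a mostly cytosolic protein) at 0.682, 0.789 and 0.822 times their WT means.

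The lists of protein entry, glycosylation and export are given by their counts, and no difference between lists was tested. Other translocon, signal peptidase and signal recognition particle genes had 6 higher, 12 lower and 4 not past of 22. Sec61a2 fell to 21.1 ± 0.192 FPKM in BACH1-KO, against 43.3 ± 1.43 FPKM in WT, and Sec61g, the gamma subunit, to 204 ± 1.33 FPKM in BACH1-KO, against 298 ± 14.5 FPKM in WT. Ssr4, a TRAP subunit, instead rose to 121 ± 2.84 FPKM in BACH1-KO, against 45.3 ± 3.57 FPKM in WT, opposite to Ssr1 and Ssr2. The oligosaccharyltransferase, which attaches N-glycans, had 3 higher, 6 lower and 3 not past of 12, with Dad1 at 65.0 ± 2.33 FPKM in BACH1-KO and 207 ± 5.35 FPKM in WT. Its subunits Tmem258 and Ddost fell to 0.606 and 0.756 times the WT means. Calnexin cycle genes had 3 higher, 2 lower and 4 not past of 9, at a median of 0.04. Lman1, a cargo receptor, and Uggt1, the folding sensor that re-glucosylates glycoproteins, fell to 0.618 and 0.793 times the WT means, and Mogs, the first glucosidase, rose to 1.42 times. ER exit and COPII genes had 2 higher, 13 lower and 3 not past of 18, at a median of -0.34. Kdelr3, a receptor that returns KDEL-tagged chaperones to the ER, fell to 10.7 ± 0.372 FPKM in BACH1-KO, against 54.7 ± 4.21 FPKM in WT, and Kdelr2 to 54.1 ± 0.250 FPKM in BACH1-KO, against 85.5 ± 2.12 FPKM in WT. Sar1b, a COPII GTPase, rose to 151 ± 1.51 FPKM in BACH1-KO, against 88.1 ± 3.41 FPKM in WT.

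ER calcium genes had 1 higher, 7 lower and 6 not past of 14. Atp2a3, the SERCA3 calcium pump, fell to 3.16 ± 0.278 FPKM in BACH1-KO, against 17.7 ± 0.545 FPKM in WT, and the calcium-binding reticulocalbins Rcn1 and Rcn3 fell to 0.461 and 0.603 times the WT means. ER-phagy receptors had 4 higher, 3 lower and 1 not past of 8. Calcoco1 rose to 1.56 times its WT mean, and Fam134b (Retreg1 in RefSeq) and Rtn3 to 1.36 and 1.16 times theirs.

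**Figure D4:**
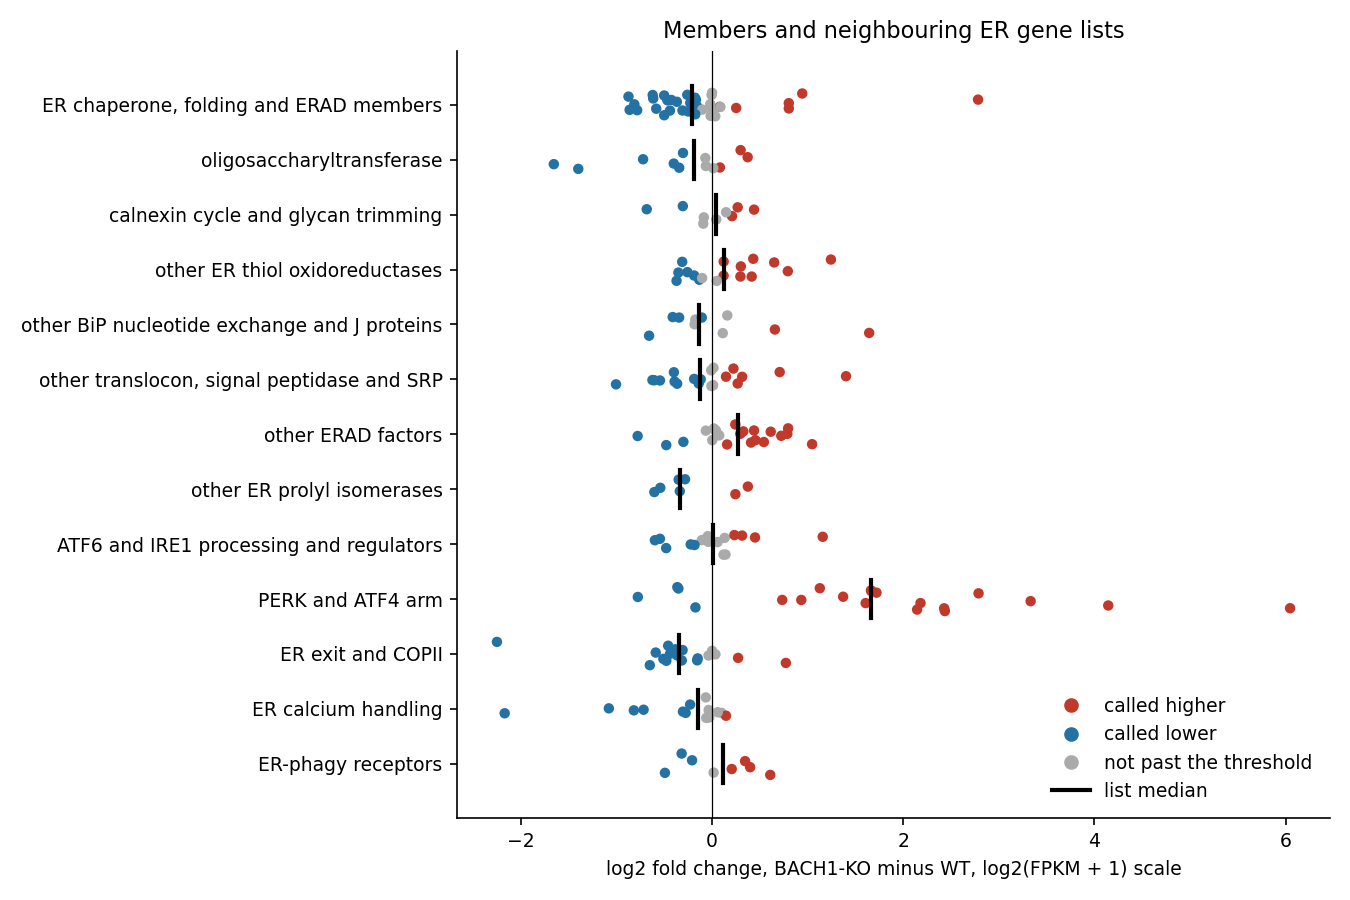
Log2 fold change (BACH1-KO minus WT, log2(FPKM + 1) scale) of the 39 members and of the tested genes of 12 neighbouring ER lists (points; called higher in red, called lower in blue, not past the threshold in grey; black bars, list medians). The PERK and ATF4 arm has a median of 1.67, the members -0.20 and ER exit and COPII genes -0.34.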

How the data were processed

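Per the labels' protocols, Trizol RNA went into TruSeq libraries. Values are FPKM for each gene symbol as the authors deposited them; Cufflinks and mm10 are named in the submitters' processing notes, and no source used here gives an aligner, annotation or version. FPKM is relative to the library, so transcripts that gain share take it from the rest, and the depth is unknown. The columns name the genotype but not the sample title, so the 6 columns served as replicates within genotype, numbered by column. Another 23 rows with a number in place of a symbol (0.0987% of the FPKM) were left out.

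Log2(FPKM + 1) was fitted with limma 3.58.1 in R 4.3.3 (eBayes with a mean-variance trend), BACH1-KO minus WT, two-sided, for the 12187 genes that averaged 1 FPKM or more, with Benjamini-Hochberg adjustment. Rose, fell and called mean an adjusted p under 0.05. The script was tested on simulated data. Standard errors and intervals are the moderated ones, other errors are SD over 3 libraries, and a fold change on this scale understates the change of low genes. Pathway and marker lists came from general knowledge. Members and lists were chosen with earlier results of these data known. Beside the 39 members, the text names up to 3 called genes per pathway list with the smallest adjusted p, and Bach1, Atf4, Ddit3 and Chac1. Coordinates and promoters are from RefSeq GRCm38.p6, exon overlaps and similar transcripts (blastn, at least 95% identity over 200 bases) from GENCODE vM21 on the same assembly. Of the tested genes 12139 had a chromosome. Alternatives were other pseudocounts, filters, scalings, prior variance, a test against a fold change of 1.5 and leaving out each library.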

Additional observations from a re-analysis of the deposited data

How the results depend on the processing

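Of the 39 members 31 were called. The same 31 were called with a pseudocount of 0.1 or 0.01 and with no filter on low values. Of them 30 kept their call with median-of-ratios scaling and with a constant prior variance, 25 after quantile normalization, which also called Atf6, and 6 when tested against a fold change of 1.5. Leaving out each library in turn gave 4 to 6 members higher and 23 to 25 lower, 4129 to 4637 of all genes higher and 4567 to 4767 lower, and 62 to 66 pathway list genes higher and 65 to 68 lower. Against a fold change of 1.5 the counts were 2 members higher and 4 lower, 1325 of all genes higher and 994 lower, and 24 pathway list genes higher and 9 lower. With a filter at 5 FPKM, among fewer genes tested, 2942 of all genes were higher, and Ern1, Derl3 and Ero1lb were not tested. Ssr2 was not called after quantile normalization, with a log2 fold change only just positive (0.0087), and the cause was not tested. The log2 ratio of the summed FPKM of the members was -0.36, with -0.33 without Sec61b, the most abundant member, and -0.20 as the median log2 fold change over members. The direction of Herpud1, Derl3, Dnajb9 and Xbp1 (higher) and of P4hb, Ero1l, Pdia6, Pdia3, Hsp90b1 and Vcp (lower) was the same in all settings that tested them. No paired analysis was possible because the columns cannot be tied to sample titles. With 3 libraries per genotype and no counts, small differences such as that of Canx are at the limit of what the spread allows.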
